A study of Mus musculus with 18 samples.

Results

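Expression of 10 glycolytic enzyme genes (Hk1, Hk2, Gpi1, Pfkl, Pfkp, Aldoa, Pgk1, Eno1, Ldha and Ldhb) was followed in mouse medulloblastomas (MBs) and in granule neuron progenitors (GNPs), the proliferating cerebellar cells from which Sonic hedgehog MB arises. The genes were chosen by name, and each was read from the array probe of that symbol with the highest mean over all 18 arrays. Of the 10 genes, 7 had a probe under their symbol, with 13 probes between them out of 45281 on the array. Hk2, Gpi1 and Eno1 had none in the annotation used here and were not analysed. Of the 7 measured, 5 (Pfkl, Pfkp, Aldoa, Pgk1 and Ldha) had a mean of at least 5 on the log2 scale. Hk1 and Ldhb lay below it on every array, close to the background of the assay.

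The study asked how loss of Norrin, the X-linked Ndp gene product that acts on Frizzled4 in blood vessels, alters expression in the cells and tumors of Ptch+/- mice, which carry 1 disrupted copy of the hedgehog receptor gene Ptch1. Illumina MouseWG-6 v2 arrays were hybridised with 1 MB from an NdpKO;Ptch+/- mouse, 1 MB from a Ptch+/- mouse, and GNPs of NdpKO;Ptch+/-, Ptch+/-, NdpKO and wild-type (WT) mice, with 4 arrays for each GNP genotype. GNPs were enriched from cerebella at postnatal day 6, whereas tumors were dissected whole from symptomatic animals. The labels also give postnatal day 6 for the tumors, which the study's text does not. NdpKO animals were males (Ndp-/y) in which a lacZ cassette disrupts the locus. Ptch+/- mice were kept on C57BL/6, NdpKO mice on a mixed background, and compound mutants had controls from their own crosses.

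For 1 array, titled as NdpKO;Ptch+/- replicate 2, other labels give an NdpKO genotype. It was grouped by its title and its effect is given where it changed a call. Ptch1 lay between 7.80 and 8.23 in NdpKO;Ptch+/- GNPs and between 7.63 and 7.94 in Ptch+/- GNPs, below the range of 8.65 to 8.97 in NdpKO GNPs and 8.56 to 8.70 in WT GNPs. In the tumors it was 7.01 in the NdpKO;Ptch+/- MB and 8.69 in the Ptch+/- MB. The Ndp probe was at background on all 18 arrays and did not check the knockout. Xist was high on 1 array, Ptch+/- GNP replicate 3 (10.02), and at background on the other 17. Pgk1, which is X-linked, was 10.12 on that array, inside the range of the other Ptch+/- arrays.

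Glycolysis splits glucose into pyruvate in the cytosol and yields ATP without oxygen. Hexokinases trap glucose in the cell, phosphofructokinases commit it to the pathway, and aldolase and triosephosphate isomerase turn the hexose into triose phosphates. Phosphoglycerate kinase, phosphoglycerate mutase, enolase and pyruvate kinase complete the route to pyruvate, which lactate dehydrogenase reduces to lactate. Many proliferating cells, GNPs and hedgehog-driven MB among them, make lactate even when oxygen is present, and Hk2 is a known hedgehog-responsive gene of GNPs.

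Promoters of this pathway are textbook targets of hypoxia-inducible factors and of MYC family proteins. The letters ACGTG, which occur in sites of both, were searched here on both strands. Hypoxia-inducible factor sites with GCGTG in their place were not searched. Overlapping matches on opposite strands form a palindrome, the E-box of MYC family proteins. RefSeq windows of the 250 bases before each annotated start (GRCm38.p6) were searched. At least 1 match was found in 5 of the 16 start windows of the 10 genes, against 16.6% of all 32851 windows. Counted by gene, with a match in any window sufficing, these were 4 of the 10 (Hk2, Aldoa, Pgk1 and Ldha), for which no share over all genes is given. The 150 bases before an annotated start are shown for Ldha and Pgk1, which carry the motif there, with matches in capitals. The other start window of Ldha had no match. Also shown is Pfkp, the enzyme with the widest spread of values.
Ldha (chr7:46845654-46845803, + strand): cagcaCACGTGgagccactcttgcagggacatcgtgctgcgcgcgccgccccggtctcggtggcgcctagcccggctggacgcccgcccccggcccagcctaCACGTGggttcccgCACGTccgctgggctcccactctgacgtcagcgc
Pgk1 (chrX:106186950-106187099, + strand): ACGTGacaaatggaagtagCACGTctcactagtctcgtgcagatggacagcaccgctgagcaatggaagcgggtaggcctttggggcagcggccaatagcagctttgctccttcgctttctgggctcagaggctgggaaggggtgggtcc
Pfkp (chr13:6648772-6648921, - strand): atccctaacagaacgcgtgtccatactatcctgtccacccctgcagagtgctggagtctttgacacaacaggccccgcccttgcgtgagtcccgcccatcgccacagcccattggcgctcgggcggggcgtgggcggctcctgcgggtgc
In Ldha the capitals mark palindromes and a single further match, 5 matches in all, and in Pgk1 they mark 2 separate matches. No match to ACGTG was found in the Pfkp window, though its printed bases include GCGTG, which was not part of the search. A match in these letters is a description of the sequence, and binding was not measured in this series.

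No difference in the glycolytic enzymes was detected between the 4 GNP genotypes. None of the 7 measured enzymes passed an adjusted p of 0.05 in any of 6 contrasts, and the smallest adjusted p was 0.279, for Hk1 near background. Among the 5 enzymes above background it was 0.511. At an unadjusted p under 0.05 there was 1 enzyme, again Hk1, in Ptch+/- against WT GNPs, where 13.2% of all probes were under that value. Over all probes, 1.09% were called in Ptch+/- against WT GNPs, 0.307% in NdpKO against WT, 0.0508% in NdpKO;Ptch+/- against WT, 0.0155% in NdpKO;Ptch+/- against Ptch+/- and 0.00442% in NdpKO;Ptch+/- against NdpKO. The interaction of both alleles called 0.495%. The share of 0 in 7 enzymes is near each of these.

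**Figure D1:**
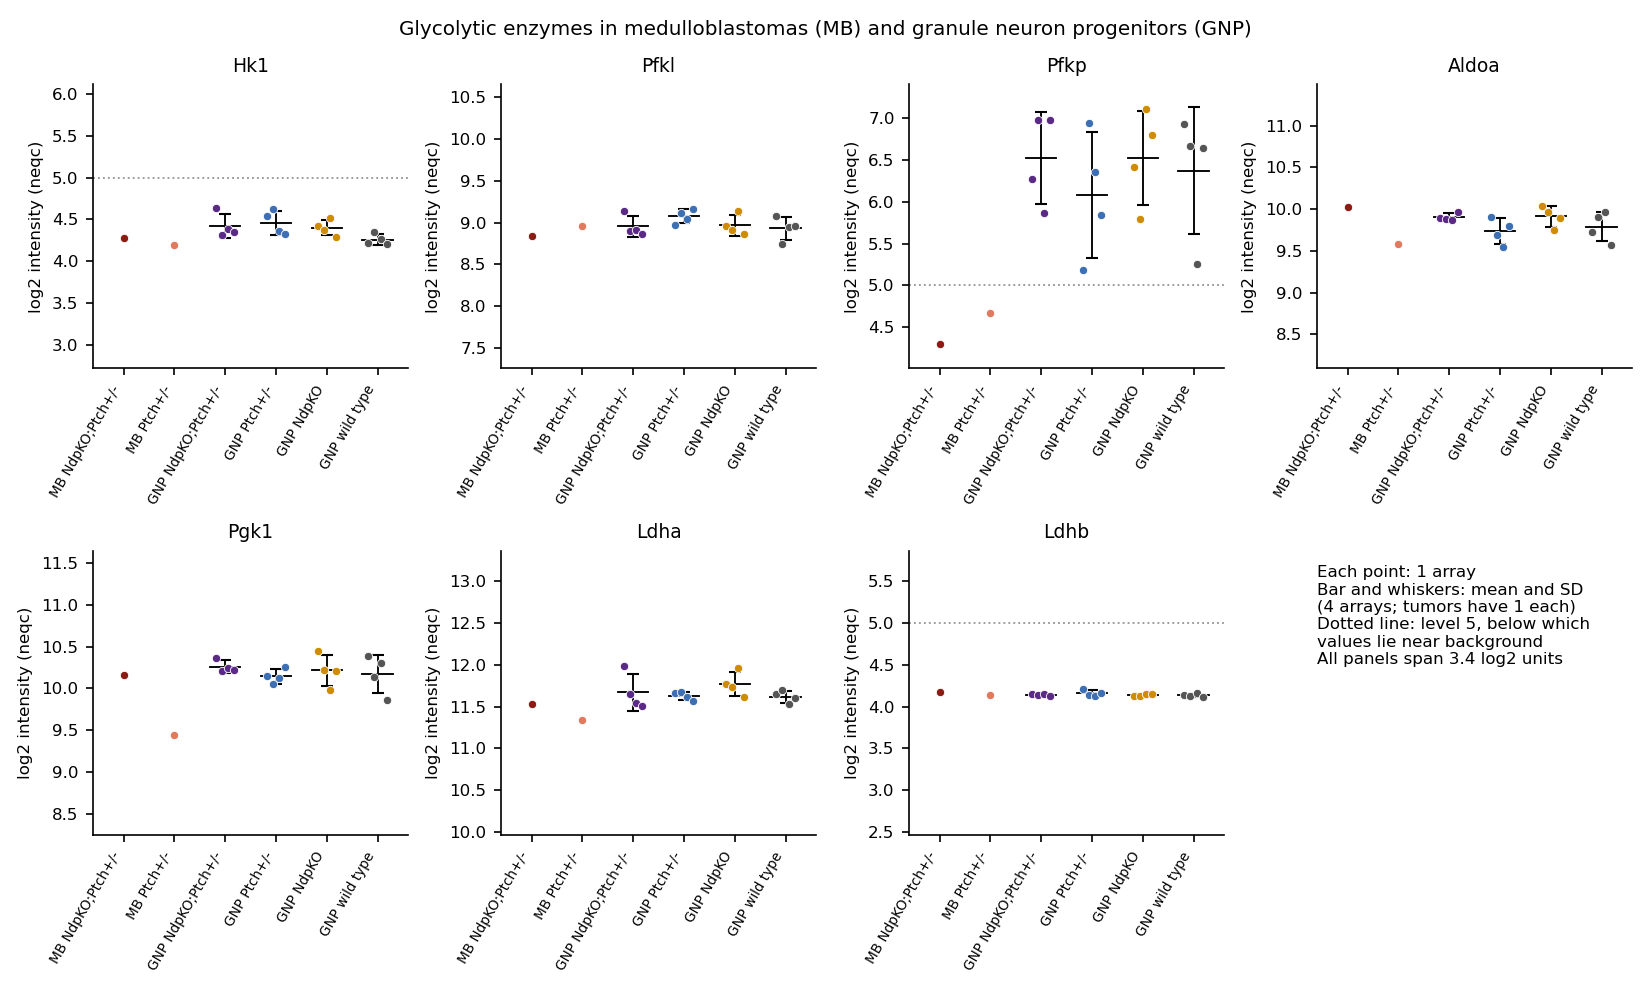
Log2 intensity of the 7 measured glycolytic enzymes on each of 18 arrays, by group, with the mean and SD of 4 arrays for each GNP genotype. Pfkp is below level 5 in both MBs and between 5.18 and 7.11 in GNPs, while Pfkl, Aldoa and Ldha stay within 0.65 log2 units over all arrays.

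Pfkl encodes the liver-type subunit of phosphofructokinase, the main control point of the pathway. It measured 9.14, 8.90, 8.92 and 8.86 in NdpKO;Ptch+/- GNPs, 8.98, 9.12, 9.05 and 9.16 in Ptch+/- GNPs, 8.96, 8.91, 9.14 and 8.86 in NdpKO GNPs, and 9.07, 8.74, 8.95 and 8.96 in WT GNPs. All genotypes overlapped. The Ptch+/- mean of 9.08 ± 0.08 was the highest and the WT mean of 8.93 ± 0.14 the lowest (SD, n = 4 each), and neighbours in the order Ptch+/-, NdpKO, NdpKO;Ptch+/-, WT were closer than the residual SD of 0.12.

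Pfkp, the platelet-type subunit of the same enzyme, was the dimmest and most scattered of the measurable enzymes. Its values were 6.28, 6.98, 5.86 and 6.98 in NdpKO;Ptch+/- GNPs, 5.18, 6.95, 6.36 and 5.84 in Ptch+/- GNPs, 6.42, 5.80, 7.11 and 6.80 in NdpKO GNPs, and 6.93, 6.67, 5.26 and 6.64 in WT GNPs. Each genotype thus held arrays more than 1 log2 unit apart. The residual SD was 0.65, so differences between genotype means (NdpKO;Ptch+/- 6.52, Ptch+/- 6.08, NdpKO 6.53, WT 6.38) were bounded only to within 2.70-fold by their 95% intervals.

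Aldoa, which encodes the aldolase that cleaves fructose 1,6-bisphosphate, measured 9.89, 9.89, 9.87 and 9.97 in NdpKO;Ptch+/- GNPs and 9.91, 9.70, 9.55 and 9.80 in Ptch+/- GNPs. It measured 10.04, 9.96, 9.75 and 9.90 in NdpKO GNPs and 9.73, 9.91, 9.96 and 9.57 in WT GNPs. The NdpKO;Ptch+/- arrays were the tightest group, lay inside the range of NdpKO and overlapped WT. Against Ptch+/- they differed by 0.17 ± 0.09 (SE; 95% interval -0.04 to 0.37, adjusted p = 0.669), with overlap at the Ptch+/- value of 9.91.

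Pgk1, the first ATP-yielding enzyme of the pathway, measured 10.37, 10.21, 10.25 and 10.22 in NdpKO;Ptch+/- GNPs and 10.15, 10.05, 10.12 and 10.26 in Ptch+/- GNPs. In NdpKO GNPs it measured 10.45, 10.22, 9.99 and 10.21, against 10.39, 10.14, 10.30 and 9.86 in WT GNPs. WT replicate 4 was the lowest GNP array for Pgk1 and the lowest WT array for Aldoa, and NdpKO replicate 1 was the highest GNP array for both. Over the 16 GNP arrays, deviations from the genotype means of Aldoa and Pgk1 had a Pearson r of 0.60, the largest of the 10 pairs of measurable enzymes, which ranged down to -0.57 for Pfkp and Aldoa. These arrays share hybridisation and normalization, so r is given as a description only.

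Ldha, the muscle-type lactate dehydrogenase subunit that favours lactate formation, was the last enzyme of the route with a measurable probe. It measured 11.99, 11.65, 11.54 and 11.51 in NdpKO;Ptch+/- GNPs, 11.66, 11.68, 11.62 and 11.57 in Ptch+/- GNPs, 11.77, 11.74, 11.96 and 11.62 in NdpKO GNPs, and 11.65, 11.70, 11.53 and 11.60 in WT GNPs. NdpKO;Ptch+/- replicate 1 and NdpKO replicate 3 stood above all other GNP arrays, and the genotypes overlapped. Means ran from 11.77 ± 0.14 in NdpKO through 11.67 ± 0.22 in NdpKO;Ptch+/- and 11.63 ± 0.05 in Ptch+/- to 11.62 ± 0.07 in WT GNPs (SD, n = 4 each). Neighbours in that order differed by less than the residual SD of 0.13.

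For Pfkl, Aldoa, Pgk1 and Ldha together, differences between genotypes ranged from -0.12 to 0.17 log2 units over the 5 pairwise contrasts, and no 95% interval reached past -0.31 or 0.37. Changes beyond 1.29-fold in either direction therefore lay outside every interval for these 4 genes, which is a bound per gene and not a joint one. Values of no enzyme were fully separated between genotypes in any of the 5 contrasts. Fully separated groups were found for 9.28% of all probes in Ptch+/- against WT, 5.47% in NdpKO against WT, 3.63% in NdpKO;Ptch+/- against WT, 4.95% in NdpKO;Ptch+/- against Ptch+/- and 2.56% in NdpKO;Ptch+/- against NdpKO. The median difference over the 7 measured enzymes was 0.01 in Ptch+/- against WT, 0.12 in NdpKO against WT, 0.09 in NdpKO;Ptch+/- against WT, 0.04 in NdpKO;Ptch+/- against Ptch+/- and -0.01 in NdpKO;Ptch+/- against NdpKO, where the median over all probes was within 0.01 of 0 in each.

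**Figure D2:**
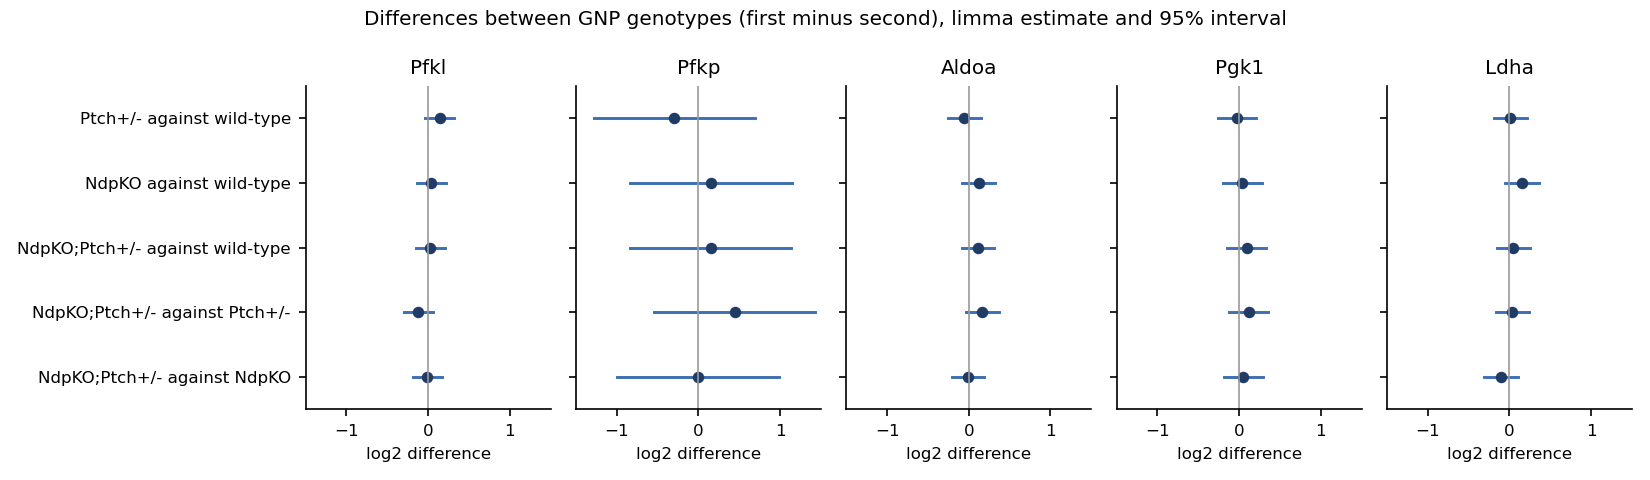
Log2 differences between GNP genotypes, first named minus second, for the 5 enzymes above background, with limma estimates as points and 95% intervals as lines. The intervals of Pfkl, Aldoa, Pgk1 and Ldha all lie between -0.31 and 0.37 and include 0, and those of Pfkp reach from -1.28 to 1.43.

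Among the other genes of the route, 29 of 32 listed genes (remaining glycolytic enzymes, glucose and lactate transporters, and regulators of phosphofructokinase and pyruvate dehydrogenase) had a probe and 14 a mean of at least 5. None was called between GNP genotypes. In Ptch+/- against WT GNPs, 6 of the 29 had an unadjusted p under 0.05, against 13.2% of all probes, and the smallest adjusted p was 0.0717, for Pdk4, a kinase that restrains pyruvate dehydrogenase. Pdk4 averaged 4.40 in Ptch+/- GNPs, below level 5, and 5.59 in WT GNPs.

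Aldoc, the brain aldolase found mainly in astrocytes and Purkinje cells, gave the most spread-out values of the bright genes. It measured 7.75, 8.26, 7.94 and 8.59 in NdpKO;Ptch+/- GNPs, 7.42, 8.25, 7.75 and 7.85 in Ptch+/- GNPs, 7.01, 7.37, 7.77 and 8.58 in NdpKO GNPs, and 8.85, 9.03, 8.68 and 8.50 in WT GNPs. All Ptch+/- arrays were below all WT arrays, where 9.28% of all probes were fully separated in either direction. The difference was -0.95 ± 0.30 (SE, adjusted p = 0.165), and NdpKO GNPs differed from WT by -1.08 ± 0.30 (adjusted p = 0.168). Summed linear levels of 9 astrocyte and Bergmann glia markers ranged from 12441 to 16064 in NdpKO;Ptch+/-, 8487 to 11144 in Ptch+/-, 8016 to 14091 in NdpKO and 15282 to 19438 in WT GNPs, and none of the 9 was below level 5 throughout a genotype. Their part in the Aldoc values was not tested. In bulk samples fewer cells of a type and less RNA per cell cannot be told apart.

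Slc2a1, the glucose transporter of blood vessels and many other cells, differed by -0.41 ± 0.23 in Ptch+/- GNPs (adjusted p = 0.482) and by -0.46 ± 0.23 in NdpKO GNPs (adjusted p = 0.475), each against WT. Summed levels of 9 endothelial markers were 3347 to 7336 in NdpKO;Ptch+/-, 3112 to 4678 in Ptch+/-, 2988 to 5699 in NdpKO and 4532 to 10173 in WT GNPs, and their part in the Slc2a1 values was not tested. Gapdh, the reference transcript of many PCR assays, had means from 12.7 in Ptch+/- to 12.81 in NdpKO;Ptch+/- GNPs, with a smallest adjusted p of 0.678 in Ptch+/- against WT. In Ptch+/- against WT GNPs, 9.28% of all probes were fully separated. Tpi1 had a dimmer probe among these, with all 4 Ptch+/- arrays (8.76 to 8.86) above all 4 WT arrays (8.21 to 8.45). The difference was 0.45 ± 0.12 (adjusted p = 0.0911). The brightest probe of Tpi1 showed 0.08 ± 0.11 (adjusted p = 0.868) in the same contrast, so the probes did not give the same size.

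Both MBs were compared with GNPs for the 7 measured enzymes. They were set against the 8 arrays of NdpKO;Ptch+/- and Ptch+/- GNPs, with genotype as a covariate. With 1 tumor per genotype, errors and adjusted p rest mostly on the spread among GNP arrays and not among tumors. Pfkp was lower in MBs and was the 1 enzyme of the 7 called. Pfkl, Aldoa and Ldha were not called. Over all probes, 14.7% were called in this comparison and 6.06% were called lower, so 1 call in 7 is close to the background. The tumors lay outside the range of all 8 GNP arrays for 2 of the 7 enzymes, Pfkp and, within background, Hk1, against 23.1% of all probes.

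Pfkp measured 4.30 in the NdpKO;Ptch+/- MB and 4.67 in the Ptch+/- MB, both below level 5, against 6.28, 6.98, 5.86 and 6.98 in NdpKO;Ptch+/- GNPs and 5.18, 6.95, 6.36 and 5.84 in Ptch+/- GNPs. Both tumors were below every GNP array. The difference was -1.81 ± 0.48 (SE, adjusted p = 0.0442), which against level 5 is at least 2.47-fold lower in MBs. The call was narrow. It was lost when any of 6 of the 8 GNP arrays or either tumor was left out (adjusted p from 0.0570 to 0.321), NdpKO;Ptch+/- replicate 2 with its disagreeing labels (adjusted p = 0.0717) among them, and was kept without Ptch+/- replicate 1 or NdpKO;Ptch+/- replicate 3. Its other probes were at background on all arrays.

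Pgk1 measured 10.16 in the NdpKO;Ptch+/- MB, just below the 10.21 to 10.37 of NdpKO;Ptch+/- GNPs, and 9.44 in the Ptch+/- MB, below the 10.05 to 10.26 of Ptch+/- GNPs. The difference of -0.40 ± 0.12 corresponded to 1.32-fold (95% interval -0.69 to -0.12, adjusted p = 0.0695) and was not called. The Ptch+/- tumor carried most of it. Without the NdpKO;Ptch+/- tumor it was -0.70 (adjusted p = 0.00181), and without the Ptch+/- tumor it was -0.10. Where only probes with a mean of at least 5 were tested, Pgk1 was called (adjusted p = 0.0332).

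Pfkl measured 8.84 in the NdpKO;Ptch+/- MB and 8.96 in the Ptch+/- MB, against 8.86 to 9.14 and 8.98 to 9.16 in GNPs of the same genotypes. Its difference was -0.12 ± 0.08 (95% interval -0.29 to 0.06, adjusted p = 0.427).

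Aldoa measured 10.03 in the NdpKO;Ptch+/- MB and 9.59 in the Ptch+/- MB, against 9.87 to 9.97 and 9.55 to 9.91 in GNPs of the same genotypes, a difference of -0.01 ± 0.10 (95% interval -0.23 to 0.21, adjusted p = 0.966). Ldha measured 11.53 and 11.34 in those tumors, against 11.51 to 11.99 and 11.57 to 11.68 in the GNPs, a difference of -0.22 ± 0.12 (95% interval -0.49 to 0.05, adjusted p = 0.311). For both genes the intervals included 0 and reached no further than 0.49 in size. Hk1 measured 4.28 and 4.19 in the tumors, under the 4.32 to 4.64 and 4.32 to 4.62 of the GNPs, at levels where no fold can be given. Its second probe, dimmer still, passed the test at -0.08 (adjusted p = 0.0219).

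Several further steps of the route were lower in MBs. Of the 29 other genes with a probe, 7 were called lower (Pfkm, Tpi1, Pgam1, Eno2, Pdk3, Pdk4 and Pdhb), against 6.06% of all probes. These shares are not matched for level, since 14 of the 29 genes and 24% of all probes had a mean of at least 5. Called higher was 1 gene (Hk3, by 0.04 within background), against 14.7% of all probes called in either direction. The median difference was 0.00 over the 29 and 0.00 over all probes. Both medians mostly reflect probes near background, so they do not describe the brighter genes. Pdk4 was below level 5 in both tumors and on average in their GNPs.

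Tpi1, triosephosphate isomerase, was lower on each of its 3 probes. The brightest measured 11.30 in the NdpKO;Ptch+/- MB and 10.75 in the Ptch+/- MB, against 12.67, 12.45, 12.22 and 12.57 in NdpKO;Ptch+/- GNPs and 12.30, 12.68, 12.53 and 12.37 in Ptch+/- GNPs. Both tumors were below every GNP array. The difference was -1.45 ± 0.16 (2.72-fold lower, adjusted p = 6.80e-04), and the other probes gave -1.48 ± 0.24 (adjusted p = 0.00418) and -2.49 ± 0.26 (adjusted p = 4.82e-04).

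Pfkm, the muscle-type phosphofructokinase subunit, was also lower on each of its 3 probes. The brightest measured 9.72 in the NdpKO;Ptch+/- MB and 9.86 in the Ptch+/- MB, against 10.29 to 10.73 and 10.40 to 10.80 in GNPs, a difference of -0.73 ± 0.14 (1.66-fold lower, adjusted p = 0.00937). The other probes gave -0.62 ± 0.12 (adjusted p = 0.00988) and -2.08 ± 0.35 (adjusted p = 0.00540). With either tumor left out the brightest probe was no longer called (adjusted p = 0.0618 without the Ptch+/- MB and 0.0875 without the NdpKO;Ptch+/- MB). Of the 3 phosphofructokinase genes, then, Pfkm and Pfkp were called lower and Pfkl was not, a difference between genes that was not tested.

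**Figure D3:**
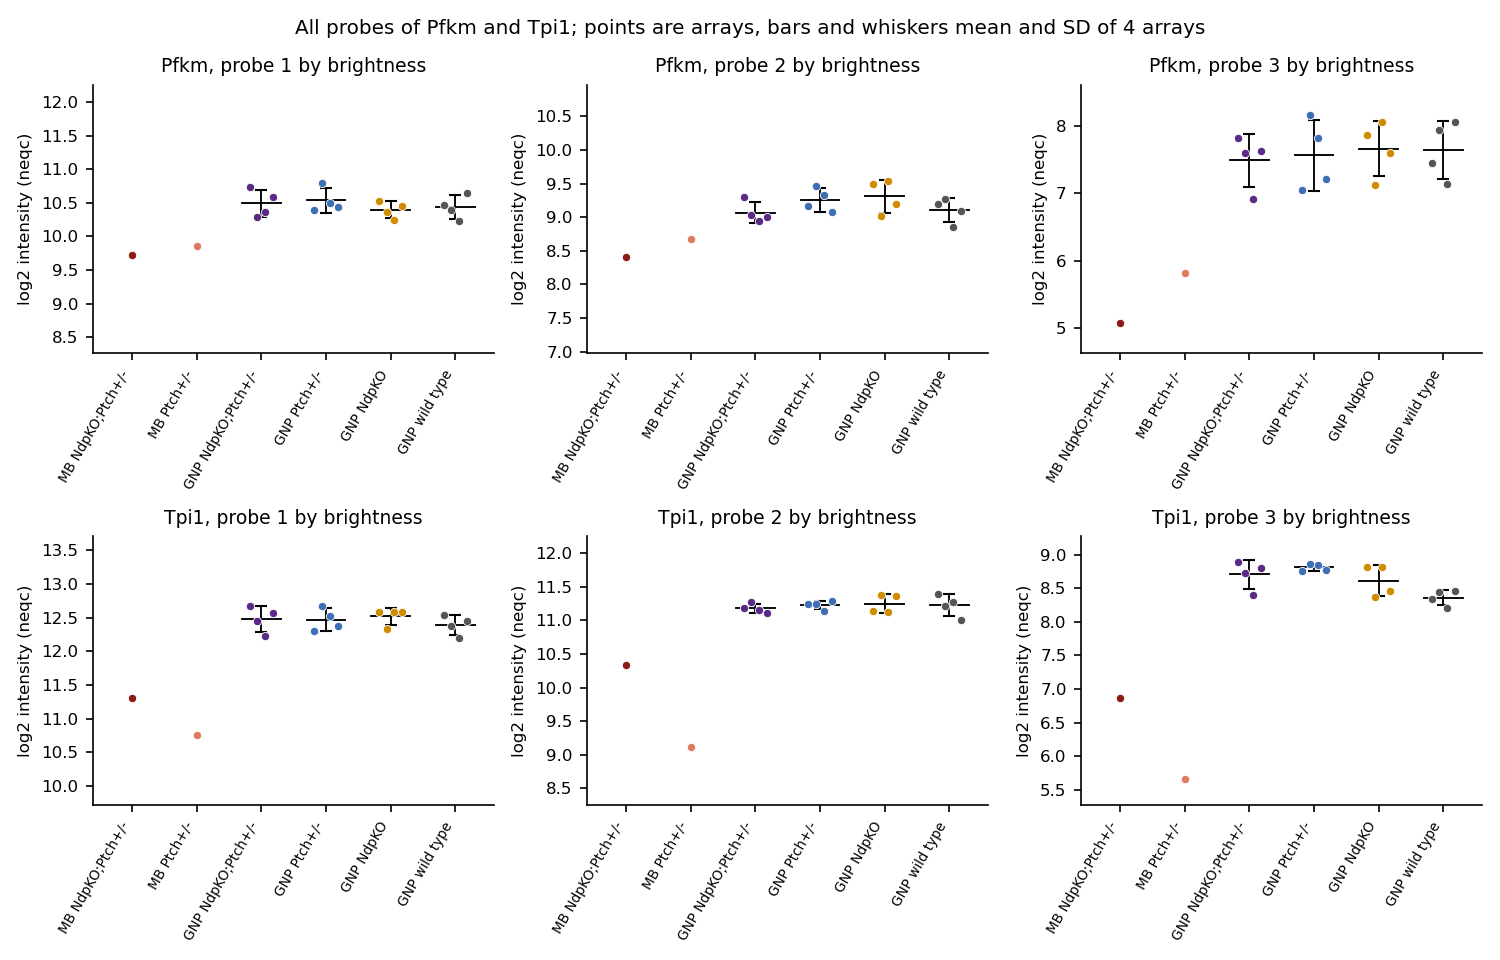
Log2 intensity of every probe of Pfkm (upper row) and Tpi1 (lower row) on 18 arrays, by group, with the mean and SD of 4 arrays for each GNP genotype. On all 6 probes both MBs lie below every GNP array.

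Eno2, the neuron-enriched enolase, measured 4.52 in the NdpKO;Ptch+/- MB and 6.78 in the Ptch+/- MB, against 8.09, 9.02, 8.58 and 8.77 in NdpKO;Ptch+/- GNPs and 8.12, 9.01, 8.21 and 8.18 in Ptch+/- GNPs. Both tumors were below every GNP array, and the NdpKO;Ptch+/- tumor was near background. The difference of -2.85 ± 0.53 (adjusted p = 0.00943) was not called without the NdpKO;Ptch+/- tumor (-1.60, adjusted p = 0.0608). Of 9 granule neuron differentiation markers, 5 were called lower in MBs and 0 higher, against 6.06% of all probes called lower. The sum of the 9 markers, in which the bright Nrep weighed most, was 23068 in the NdpKO;Ptch+/- MB and 21139 in the Ptch+/- MB. It was 34606 to 37346 and 37693 to 44361 in GNPs of those genotypes. The part of these markers in the Eno2 result was not tested.

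Pgam1, phosphoglycerate mutase, measured 5.82 in the NdpKO;Ptch+/- MB and 4.79 in the Ptch+/- MB, against 6.23 to 7.19 and 5.71 to 6.32 in GNPs. The difference was -1.12 ± 0.25 (adjusted p = 0.0220), and it was not called without a genotype term (adjusted p = 0.101), without the Ptch+/- MB (adjusted p = 0.210) or without the NdpKO;Ptch+/- MB (adjusted p = 0.0697). Pdk3, a pyruvate dehydrogenase kinase, was 2.45-fold lower (-1.29 ± 0.19, adjusted p = 0.00275). Pdhb, a subunit of pyruvate dehydrogenase itself, was lower on its brightest probe (-1.59 ± 0.20, adjusted p = 0.00137) but differed by 0.08 ± 0.14 on its second (adjusted p = 0.817), so its probes did not agree.

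Other highly expressed steps were not called. Gapdh measured 12.79 in the NdpKO;Ptch+/- MB and 13.12 in the Ptch+/- MB, against 12.62 to 12.91 and 12.58 to 12.76 in GNPs (difference 0.20 ± 0.11, adjusted p = 0.335). Pkm, pyruvate kinase, differed by 0.11 ± 0.09 (adjusted p = 0.553) on its brightest probe, and a second probe below level 5 on average in both tissues passed the test at 0.71. The glucose transporters Slc2a1 and Slc2a3 differed by -0.44 ± 0.23 (adjusted p = 0.308) and 0.16 ± 0.22 (adjusted p = 0.758). Aldoc was 8.52 in the NdpKO;Ptch+/- MB, inside the range of NdpKO;Ptch+/- GNPs, and 10.39 in the Ptch+/- MB, above every GNP array (difference 1.48 ± 0.47, adjusted p = 0.0819). The astrocyte and Bergmann glia sum was 17162 in the NdpKO;Ptch+/- MB and 30294 in the Ptch+/- MB. Of the 9 markers in it, 4 were called higher in MBs and 2 lower (Gdf10 and Aqp4), against 14.7% of all probes called in either direction. The part of these markers in the Aldoc values was not tested.

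**Figure D4:**
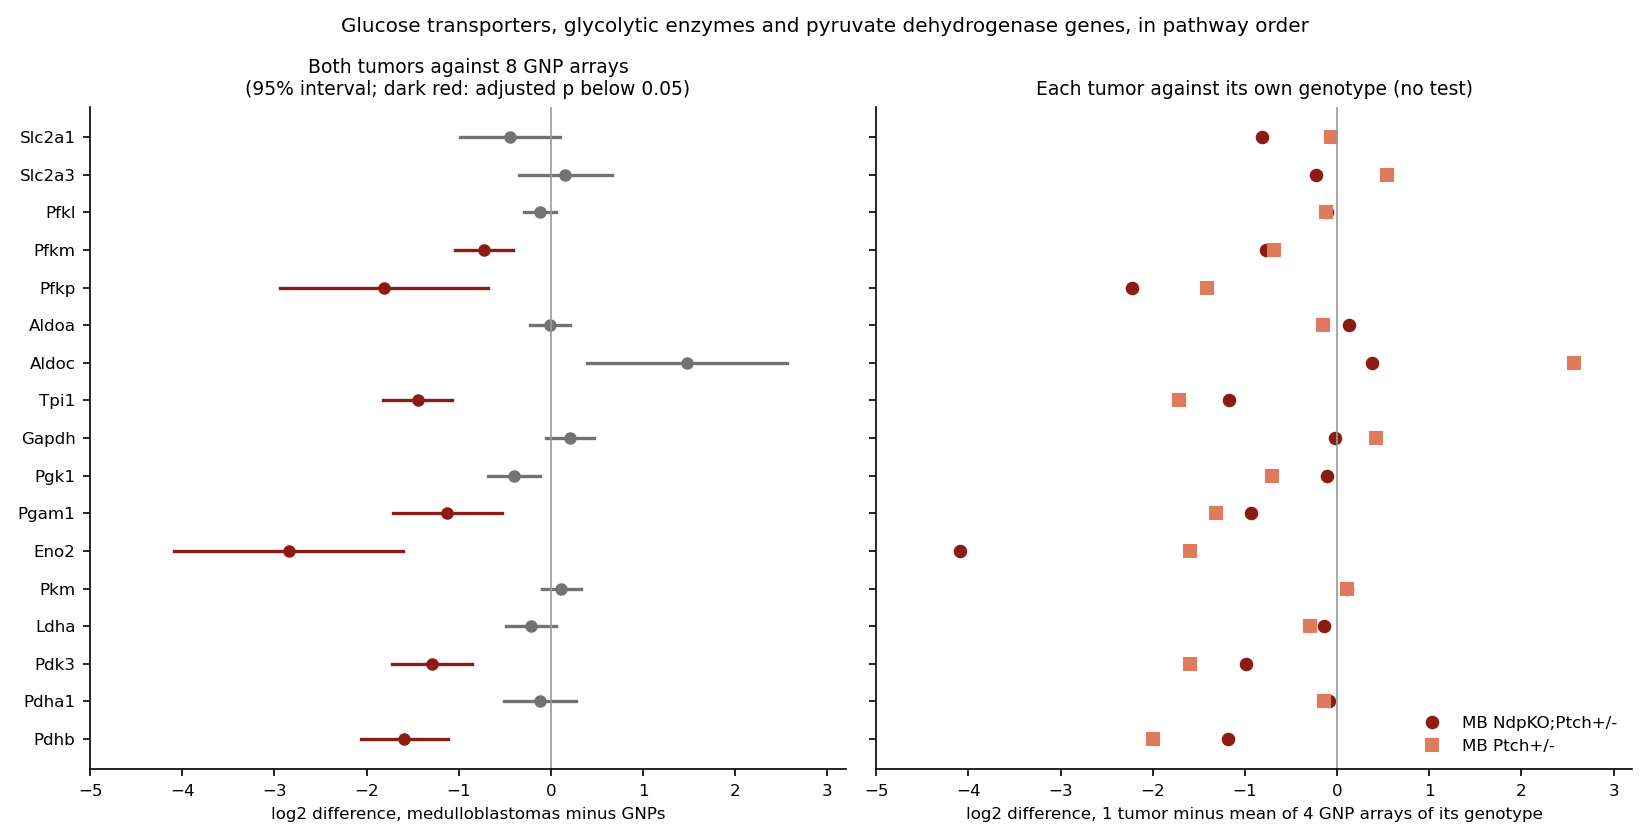
Log2 differences of 17 genes of glucose uptake, glycolysis and pyruvate entry, in pathway order. Left, both MBs against 8 GNP arrays with 95% intervals, called genes in dark red; right, each MB minus the mean of the 4 GNP arrays of its own genotype, with no test. Pfkm, Pfkp, Tpi1, Pgam1, Eno2, Pdk3 and Pdhb are called lower, and Eno2 and Aldoc differ most between the tumors.

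The tissue compared differed from GNPs in cell content. The calls below compare with 14.7% of all probes called in either direction and 6.06% called lower. The summed level of 9 microglia and leukocyte markers was 4075 in the NdpKO;Ptch+/- MB and 8421 in the Ptch+/- MB, against 582 to 976 and 584 to 1019 in GNPs of those genotypes, with 8 of the 9 called higher. For 9 endothelial markers the sums were 1075 and 986 in the tumors, against 3347 to 7336 and 3112 to 4678 in the GNPs, with 3 called lower. For 8 proliferation markers they were 11854 and 14650 in the tumors, against 11656 to 13278 and 11374 to 12222 in the GNPs, with 1 called higher and 1 lower. The 3 erythroid markers summed to 1012 and 959 in the tumors, against 6593 to 10259 and 4410 to 13575 in the GNPs, and the alpha-globin gene Hba-a1, which carried that sum, was called lower (-3.09, adjusted p = 8.70e-04). Of 6 oligodendrocyte lineage markers, the myelin genes Mbp and Mog were called lower in MBs and the progenitor markers Olig1 and Pdgfra higher. The part of these cell types in the enzyme values was not tested, and tissue, age and preparation (purified cells or dissected tumor) cannot be told apart in this design.

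The NdpKO;Ptch+/- tumor was finally set beside the Ptch+/- tumor, with 1 array each and hence no test. Of 4 enzymes with a mean of at least 5 over the tumors, 1 was past 1.5-fold, against 29.4% of the 10929 probes at that level. It was Pgk1, at 10.16 in the NdpKO;Ptch+/- MB and 9.44 in the Ptch+/- MB (1.65-fold higher). Aldoa was 10.03 and 9.59 (1.36-fold higher), Ldha 11.53 and 11.34 (1.14-fold higher) and Pfkl 8.84 and 8.96 (1.08-fold lower). Of 15 other pathway genes at that level, 3 were past 1.5-fold higher and 2 past 1.5-fold lower in the NdpKO;Ptch+/- tumor, the last pair being Aldoc (8.52 and 10.39) and Eno2 (4.52 and 6.78). The summed level of 10 hypoxia response genes, none of them glycolytic, was 2613 in the NdpKO;Ptch+/- MB and 1929 in the Ptch+/- MB. It was 2433 to 2668 and 2226 to 2490 in GNPs of those genotypes. Of the 10, 6 were below level 5 in the NdpKO;Ptch+/- MB and 7 in the Ptch+/- MB. The bright Ddit4 weighed most in the sum. In MBs against GNPs, Ddit4 was called lower (-0.66) and Kdm3a higher (0.58), where 14.7% of all probes were called in either direction. The part of these genes in the enzyme values was not tested.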

How the data were processed

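Total RNA of 16 GNP samples and 2 MBs was read on 1-colour Illumina arrays. The deposited values are log2 intensities that the authors, per their methods, exported from BeadStudio and background-corrected and quantile-normalized with neqc. Each array had a median of 4.13 and from 23.0% to 23.9% of probes at or above level 5, a limit near background chosen after the values were seen. The table has no detection calls, so probes were judged by their distance from background alone. The number of arrays also limits precision. The authors' filter on probe quality was not applied, and probe sequences were not examined, so cross-hybridisation with pseudogenes of Gapdh, Pgk1, Ldha, Aldoa and Tpi1 was not assessed.

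Probes were named from the platform annotation (34885 with 1 symbol) and checked against a RefSeq gene table of GRCm38.p6, which also gave the promoter windows. The members and gene lists were chosen with earlier results of these data known. All members were named, with Gapdh, Tpi1, Pgam1, Pkm, Eno2, Aldoc, Slc2a1, Slc2a3 and any called gene of the lists for other glycolysis (32 genes), pentose phosphate (7) and regulators (10). List levels are sums of linear intensities of each gene's brightest probe, so the brightest genes of a list weigh most in its sum. Examples are Nrep (mean 14.21 over all arrays) among differentiation markers and Slc1a3 (12.55) among astrocyte and Bergmann glia markers.

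The 16 GNP arrays were fitted in limma 3.58.1 (R 4.3.3) with a mean for each genotype and empirical Bayes moderation, and the 2 MBs with 8 GNP arrays in a model of genotype and tissue. Tests were two-sided, adjusted by Benjamini-Hochberg over 45281 probes and called below 0.05. Shares of all probes given beside counts include probes near background and are not matched for level, except between the tumors. A fold with 1 group below level 5 was computed against 5 and is a lower bound. The study states 4 animals per GNP genotype. Same-numbered arrays did not deviate together, and the replicate block was an alternative only. Other alternatives were the variance prior, array weights, a filter at level 5, recentring, cyclic loess, averaging probes of a gene, regrouping the array with disagreeing labels, fitting the 2 groups alone and leaving out each array. The fits were tested on simulated data.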

Additional observations from a re-analysis of the deposited data

Results flagged for a closer look

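Of 60 groups of 4 GNP arrays examined for 15 enzymes and transporters, 3 held 1 array far from the other arrays of its genotype, judged by its gap to the nearest array over the range of the group (Dixon's 95% limit). Chance flags about 5% of such groups. Pfkp was 5.26 in WT replicate 3, against 6.64 in the next lowest WT array (ratio 0.83). Tpi1 was 12.33 in NdpKO replicate 2, against 12.58 in the next lowest NdpKO array (ratio 0.954). Eno2 was 9.01 in Ptch+/- replicate 2, against 8.21 in the next highest Ptch+/- array (ratio 0.905).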

How the results depend on the processing

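Between GNP genotypes, 0 of the measured enzymes were called in each of the 6 contrasts under every alternative and with every array left out in turn, including the array with disagreeing labels taken as NdpKO. Median differences moved by less than the residual SD of 0.13. The replicate block left 0 enzymes called, and the calls over all probes fell to 263 with the block, against 494 without it, in Ptch+/- against WT, to 52 against 139 in NdpKO against WT, to 12 against 23 in NdpKO;Ptch+/- against WT, to 1 against 7 in NdpKO;Ptch+/- against Ptch+/- and to 72 against 224 in the interaction, with 2 in both for NdpKO;Ptch+/- against NdpKO. The 24 pairs of same-numbered arrays had a median correlation of -0.04, and 4 of 16 arrays correlated best with their own number.

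In MBs against GNPs, 1 enzyme was called. The number was 2 with a filter at level 5, 2 with a trended robust prior and 2 with probes of a gene averaged (Pfkp and Pgk1 each time), and 3 with arrays centred on the probes at level 5, where Ldhb was added by 0.12 within background, a shift close to the 0.11 by which that centring moved the median of all probes. It was 0 without the array with disagreeing labels, where Pfkp was -1.73 (adjusted p = 0.0717). With 1 array left out the number ranged from 0 to 1 and the Pfkp difference from -2.22 to -1.41. The median difference of the enzymes, -0.21, ranged from -0.27 to -0.09. Over all probes with a mean of at least 5 the median difference was itself -0.09. With arrays centred on such probes, Pgk1 differed by -0.29, Ldha by -0.10, Pfkl by -0.003 and Aldoa by 0.10. Tpi1, Pdk3 and Pdhb were called under all of these alternatives, which for the genes outside the 10 were added after the values were seen. Every fit of MBs against GNPs assumes that tumors vary as the GNP arrays do, and its errors rest mostly on those arrays. This holds most strongly with 1 tumor left out. Each tumor group holds 1 array, and values below level 5 have no reliable order.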

Other observations

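The pentose phosphate pathway, which branches from glycolysis to supply NADPH and ribose, had probes for 6 of 7 listed genes. None was called between GNP genotypes. In MBs against GNPs, 2 were called lower and 0 higher, against 6.06% of all probes called lower. Tkt, transketolase, measured 9.88 in the NdpKO;Ptch+/- MB and 9.81 in the Ptch+/- MB, against 10.49 to 10.82 and 10.51 to 10.70 in GNPs of those genotypes (difference -0.81 ± 0.08, 1.75-fold lower, adjusted p = 4.12e-04). Taldo1, transaldolase, measured 11.51 and 11.98 in the tumors, against 12.10 to 12.24 and 12.22 to 12.45 in the GNPs (difference -0.49 ± 0.08, adjusted p = 0.00518). Rpe, ribulose-phosphate epimerase, averaged 6.58 in NdpKO;Ptch+/- GNPs and 4.60 in WT GNPs, the latter below level 5. Their arrays did not overlap, as for 3.63% of all probes in that contrast, and Rpe was not called (adjusted p = 0.219).

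Of 10 listed regulators of the pathway, 9 had a probe and 2 a mean of at least 5. Both of these were called higher in MBs, where 14.7% of all probes were called in either direction. Mycl, a MYC family gene, measured 11.94 in the NdpKO;Ptch+/- MB and 12.08 in the Ptch+/- MB, against 10.42 to 10.74 and 10.77 to 10.85 in GNPs of those genotypes (2.46-fold, adjusted p = 1.84e-05). Arnt, the partner of hypoxia-inducible factors, was 1.44-fold higher (0.52 ± 0.12, adjusted p = 0.0215), and its second probe was at least 2.58-fold higher (adjusted p = 2.12e-05). The Mycn and Myc probes were at background on all arrays, so the MYC family member central to GNP growth was not measured here.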
